A study of Mus musculus with 6 samples.

Results

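Autophagy delivers worn cell contents to the lysosome, and 38 genes of both systems were followed here in whole lungs of mice that breathed hydrogen. The genes were chosen by name for their known roles, at a time when earlier results of these data were known. A gene was measured where a probe set of the array, a group of short probes against its RNA, carried its symbol and no other. This held for 36 of the 38 genes through 76 probe sets, of 45037 probe sets and 17097 genes measured in all. Map1lc3b and Sqstm1 had no probe set naming them alone and were not analysed here. All 6 animals were male BALB/c mice aged 10 weeks. The hydrogen group was 3 mice kept for 3 weeks in 98% air with 2% molecular hydrogen, and the control group was 3 mice kept for the same time in normal air. Each lung had an array of its own, so precision is limited by 3 arrays in each group.

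In autophagy, starvation or damage activates the kinases ULK1 and ULK2, a lipid kinase complex around Beclin 1 marks a growing membrane, and a chain of conjugating enzymes attaches small ATG8 proteins such as LC3 and GABARAP to it. The closed vesicle then fuses with the lysosome, whose interior is acidified by a proton pump, the V-ATPase, and filled with proteases (cathepsins), glycosidases and lipases. The transcription factor TFEB drives many genes of both systems. In the lung, macrophages and surfactant-producing alveolar type 2 cells are rich in lysosomes or organelles related to them.

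The arrays carried the RNA of lung: the alveolar type 2 marker Sftpc, the gene of surfactant protein C, had log2 values of 13.16, 13.16 and 13.19 in hydrogen mice and 13.15, 13.16 and 13.14 in control mice. The arrays of the groups differed widely. Of all 45037 probe sets, 47.1% passed an adjusted p of 0.05 (limma, Benjamini-Hochberg over all probe sets), and so did 51.9% of the array's own 104 control probe sets in a fit that included them, with log2 differences from -0.97 to 1.07. Medians of the arrays were 4.84 to 4.85 in the hydrogen group and 4.75 to 4.76 in the control group, and standard deviations over probe sets were 1.80 to 1.81 and 1.90 to 1.92. The labels give no batch, so hydrogen and any batch that coincided with it cannot be told apart. With 3 mice in each group the smallest p of a two-sided exact permutation test is 0.1, so single probe sets were tested with limma, which shares information on the spread. All differences below are log2 values, hydrogen minus control, with moderated standard errors (SE) and adjusted p-values from that fit.

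Changes in the autophagy and lysosome genes were small and ran both ways. By the brightest probe set, the proton pump gene Atp6v1a, the protease gene Ctsh, the Beclin 1 gene Becn1 and the kinase gene Ulk2 were lower in the hydrogen group. The regulator gene Tfeb was higher. For Becn1 only 1 of 3 probe sets passed, and the brightest Ulk2 probe set did not pass after renewed quantile normalisation or cyclic loess. Among the 76 probe sets 11 (14.5%) were higher and 28 (36.8%) lower with hydrogen, against 24.3% and 22.8% among all probe sets, and 48 of the 76 had no overlap between groups, or 63.2% against 57.3%. With each gene represented by its brightest probe set, 5 genes were higher, 12 were lower and 19 did not pass, against 25.5% higher and 25.9% lower over all genes. All 36 genes were brighter than the median probe set. Among all genes that bright, 16.4% were higher and 37.9% lower, so the members' shares of 13.9% and 33.3% lay near those of genes of like brightness. In either direction 47.2% of the member genes passed, against 51.4% of all genes and 54.4% of those above the median probe set, and 24 of the 36 did not overlap between groups, or 66.7% against 61% and 61.9%. The median difference was -0.10 over the 36 genes, 0.01 over all genes and -0.12 over all genes above the median probe set. The predominance of falls turned when the arrays were made alike in their distribution: after renewed quantile normalisation or cyclic loess 12 member genes were higher and 3 lower, with medians of 0.08 and 0.06. These 2 settings are called the renormalisations below. Centring each array on its median moved the count the other way, to 1 higher and 16 lower member genes and to 5 higher and 37 lower probe sets. The counts of 5 and 12 were 3 and 7 without hydrogen replicate 2, 3 and 9 without hydrogen replicate 3, 2 and 8 without control replicate 1, 2 and 7 without control replicate 2, and 4 and 7 without control replicate 3. Over all genes the same runs called 3263 to 4010 higher and 3481 to 4099 lower, against 4353 and 4433 with all arrays.

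**Figure D1:**
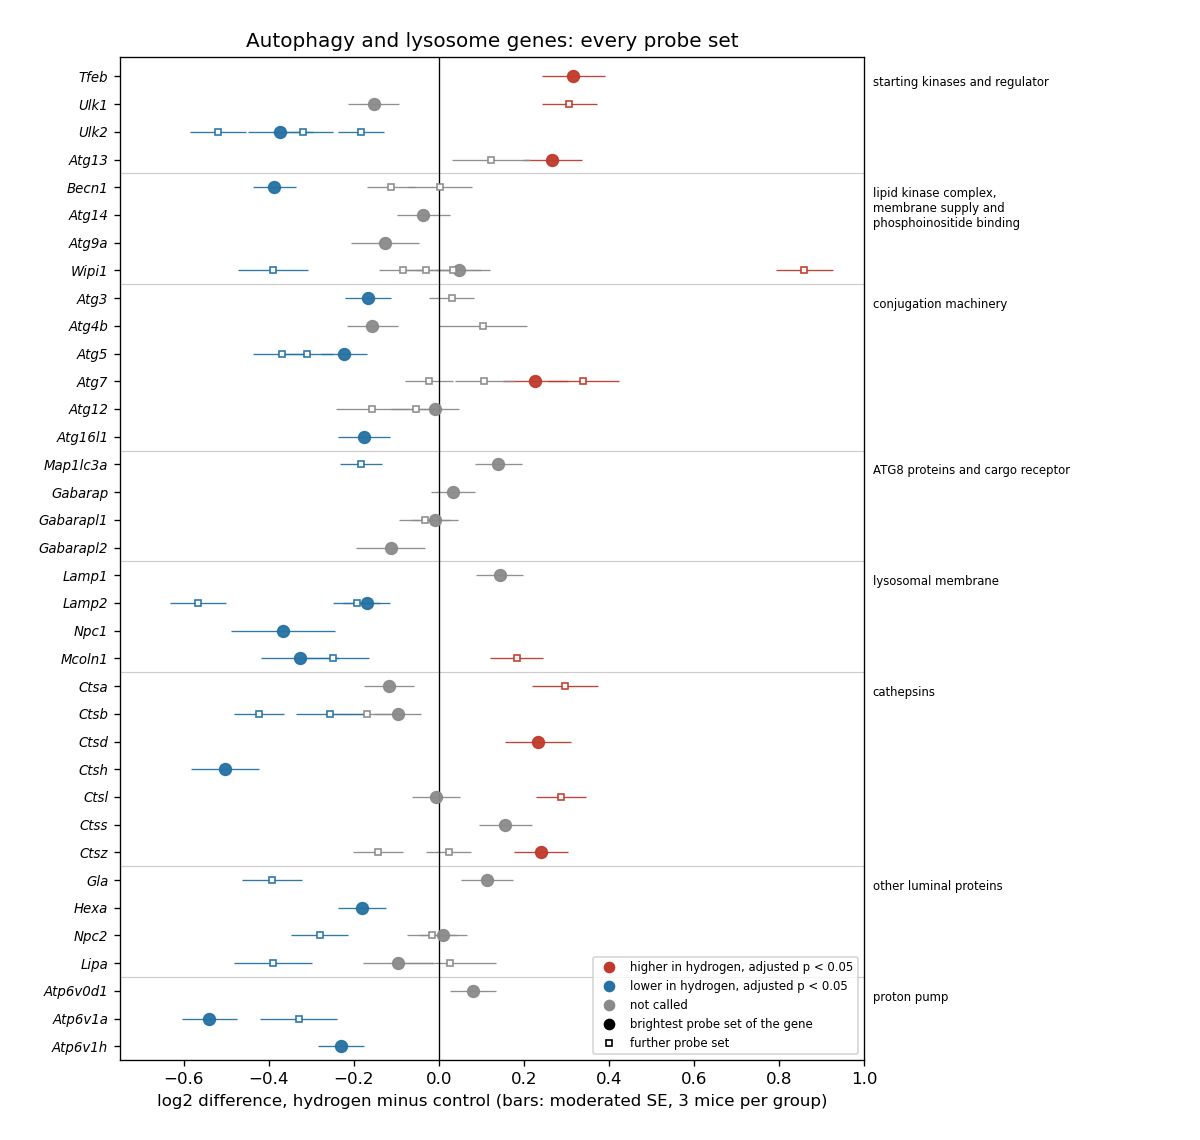
Log2 difference (hydrogen minus control) of each of the 76 probe sets by gene, with the moderated SE as a bar. Filled circles are the brightest probe set of each gene and open squares its further probe sets, in red where higher, blue where lower and grey where not past the threshold. Values run from -0.57 (Lamp2) to 0.86 (Wipi1), and the brightest probe sets lie between -0.54 and 0.32.

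Tfeb, the regulator, was higher in the hydrogen group. Its log2 values were 6.23, 6.42 and 6.36 in hydrogen mice and 5.92, 6.02 and 6.12 in control mice, without overlap (difference 0.32, SE 0.07, adjusted p = 0.0091), which is 1.25-fold on the linear scale. The call held in all 16 other settings tried, with differences from 0.23 to 0.45. Genes of the kinases that start autophagy had calls in both directions. All 4 probe sets of Ulk2 were lower, with differences of -0.37 in the brightest and -0.52, -0.32 and -0.18 in the others. The brightest Ulk2 probe set read 7.64, 7.50 and 7.44 in hydrogen mice and 7.94, 7.78 and 7.98 in control mice (SE 0.08, adjusted p = 0.00516). The hydrogen values all lay below the control values. This probe set did not pass after renewed quantile normalisation (-0.15, adjusted p = 0.177) or cyclic loess (-0.17, adjusted p = 0.112), while the probe set at -0.52 (1417846_PM_at) passed in all 14 other settings that kept it, with -0.61 to -0.29. The call of the dim probe set at -0.18 ended without hydrogen replicate 1 or 2 (adjusted p = 0.0824 and 0.0554) or control replicate 1 or 2 (0.071 and 0.0641), and the one at -0.32 did not pass after the renormalisations (-0.13 and -0.16). For Ulk1 the brightest probe set did not pass (-0.15, SE 0.06, adjusted p = 0.0624), and the further one was higher (0.31, SE 0.06, adjusted p = 0.0057) with 5.38, 5.52 and 5.43 in hydrogen mice and 5.07, 5.12 and 5.22 in control mice. Atg13, whose product holds the ULK complex together, read 6.32, 6.36 and 6.53 in hydrogen mice and 6.17, 6.08 and 6.16 in control mice. The hydrogen values were all above the control values (0.27, SE 0.07, adjusted p = 0.0139). The Atg13 call ended only after centring on the array median (0.18, adjusted p = 0.0676), and its further probe set did not pass (0.12, adjusted p = 0.298).

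TFEB is known to bind DNA that holds CACGTG, and the promoters of the member genes were searched for this sequence and for the longer TCACGTGA, both of which read the same on either strand. RefSeq promoters (GRCm38.p6, from 250 bases before to 50 bases after the start of the gene) were given for 30 of the 38 genes, in 33 promoters. CACGTG was in 12 of the 33 promoters, or 36.4%, against 7.15% of all 32851 promoters. TCACGTGA, which contains the shorter sequence and is counted under it too, was in 7 promoters, or 21.2%, against 0.974%. By gene, CACGTG was in 8 of 14 lysosome members and 4 of 16 autophagy members, and TCACGTGA in 6 and 1. The members were picked for roles in systems that TFEB is known to drive, so nothing about hydrogen is read from this excess. Genes with a promoter were then split by the call of the brightest probe set, which counts Mcoln1, with opposite calls, as lower. CACGTG stood in 2 of 5 that were higher in the hydrogen group, 4 of 7 that were lower and 6 of 16 that did not pass, so it marked genes of both directions. It was in none of the 3 promoters given for Tfeb, which says only that these letters are not in those windows. The stretches shown are those of member genes called higher (Atg7 and Ctsd) or lower (Atp6v1a, Atg3, Atg5 and Mcoln1), and of Lamp1, which did not pass but holds 4 copies. They are written 5′ to 3′ on the strand of the gene, end before its start, and have the matched letters in capitals.
Atp6v1a (chr16:44139366-44139409, minus strand): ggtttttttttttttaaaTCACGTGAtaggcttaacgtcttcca
Atg3 (chr16:45158717-45158782, plus strand): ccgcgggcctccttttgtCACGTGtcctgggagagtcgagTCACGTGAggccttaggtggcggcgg
Atg5 (chr10:44268307-44268338, plus strand): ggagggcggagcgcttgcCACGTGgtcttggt
Mcoln1 (chr8:3500430-3500498, plus strand): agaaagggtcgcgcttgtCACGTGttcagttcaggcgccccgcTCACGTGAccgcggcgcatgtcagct
Atg7 (chr6:114670946-114670987, plus strand): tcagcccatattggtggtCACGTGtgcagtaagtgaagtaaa
Ctsd (chr7:142387901-142387944, minus strand): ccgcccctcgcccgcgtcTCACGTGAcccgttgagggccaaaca
Lamp1 (chr8:13159082-13159160, plus strand): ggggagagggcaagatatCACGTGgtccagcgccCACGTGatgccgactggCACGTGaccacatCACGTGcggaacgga
The first match lies 132 bases before the start in Atp6v1a, 94 in Atg3, 14 in Atg5, 71 in Mcoln1, 132 in Atg7 and 61 in Lamp1. In Ctsd the match shown lies 99 bases before the start, and a CACGTG not shown lies 245 bases before it.

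Becn1 was the 1 of the 4 genes of the lipid kinase complex and its membrane partners that was called by its brightest probe set. Beclin 1 is the scaffold of the kinase complex that makes the lipid mark on the new membrane. This probe set read 9.59, 9.56 and 9.56 in hydrogen mice and 9.97, 9.97 and 9.93 in control mice, without overlap (difference -0.39, SE 0.05, adjusted p = 0.000827). The call held in all 15 other settings that kept this probe set, with -0.48 to -0.17, the smallest being the mean of its probe sets. The other probe sets of Becn1 did not pass, with 0.003 (adjusted p = 0.973) and -0.11 (adjusted p = 0.131), so the fall was seen by 1 of 3 probe sets, and that one is of a type that can match more than 1 transcript. Atg14, which directs the complex to autophagy, had -0.04 (adjusted p = 0.656). Atg9a, whose product carries membrane to the growing vesicle, had -0.13 (adjusted p = 0.22). A further 4 probe sets that name Atg9a beside a second gene were left out by the rule.

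Wipi1, which encodes a reader of the lipid mark, gave opposite answers by probe set. The brightest of its 6 probe sets did not pass (0.05, adjusted p = 0.489, but 0.27 and 0.25 with a call as higher after the renormalisations), reading 7.71, 7.76 and 7.70 in hydrogen mice and 7.70, 7.69 and 7.64 in control mice. The probe set 1427323_PM_s_at read 5.90, 5.80 and 5.78 in hydrogen mice and 5.02, 5.02 and 4.86 in control mice. Its difference of 0.86 (SE 0.07, adjusted p = 0.000234), or 1.82-fold, was the largest of any member probe set and passed in all 13 other settings that kept it. The probe set 1424917_PM_a_at was lower, with 4.36, 4.49 and 4.64 in hydrogen mice and 4.82, 4.99 and 4.85 in control mice (-0.39, SE 0.08, adjusted p = 0.00593), and passed in all 12 other settings that kept it. Its mean lay below the median of the array. Both 1427323_PM_s_at and 1424917_PM_a_at are of a type that can match more than 1 transcript. The groups did not overlap in either. The remaining probe sets overlapped between the groups. They were 1438709_PM_at (5.27, 5.39 and 5.33 in hydrogen mice, 5.42, 5.36 and 5.46 in control mice), 1456624_PM_at (5.33, 5.22 and 5.39 in hydrogen mice, 5.30, 5.39 and 5.34 in control mice) and 1452392_PM_a_at (3.54, 3.54 and 3.65 in hydrogen mice, 3.45, 3.74 and 3.44 in control mice), with differences of -0.08, -0.03 and 0.03 that did not pass. Which transcripts each probe set sees was not analysed here, so no direction is given for Wipi1.

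**Figure D2:**
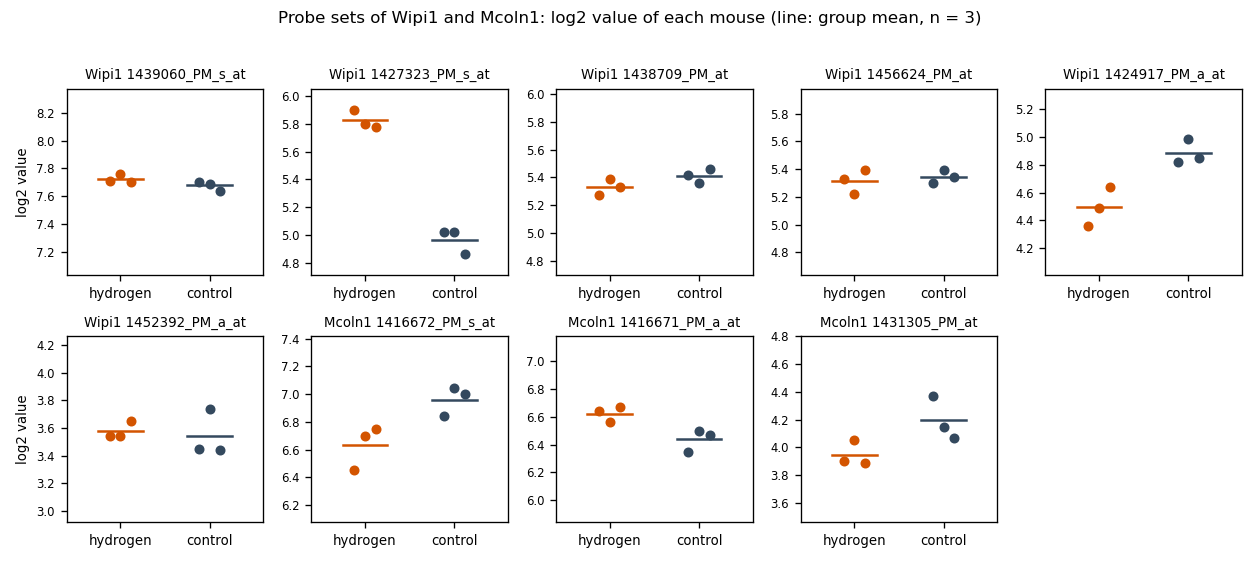
Log2 value of each mouse (points) and group mean (lines, n = 3) for the 6 probe sets of Wipi1 and the 3 of Mcoln1, hydrogen left of control in each panel, all panels with the same height of scale. For Wipi1 1427323_PM_s_at the hydrogen mice lie at 5.78 to 5.90 above control mice at 4.86 to 5.02, while for 1424917_PM_a_at they lie at 4.36 to 4.64 below control mice at 4.82 to 4.99.

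Of the 6 conjugation genes, Atg5, Atg3 and Atg16l1 were lower by their brightest probe set, Atg7 was higher, and Atg12 and Atg4b did not pass. The products of Atg5, Atg12 and Atg16l1 form the complex that places ATG8 proteins on the membrane. All 3 probe sets of Atg5 were lower (-0.22, -0.31 and -0.37). Its brightest probe set read 6.63, 6.56 and 6.57 in hydrogen mice and 6.77, 6.85 and 6.81 in control mice, without overlap (SE 0.05, adjusted p = 0.0104), and did not pass after renewed quantile normalisation (-0.03) or cyclic loess (-0.05). The one at -0.31 had -0.17 after renewed quantile normalisation (adjusted p = 0.0529). The dimmest one (1418235_PM_at), at 4.73, 4.60 and 4.68 in hydrogen mice and 5.09, 4.93 and 5.10 in control mice, passed in every setting that kept it. Atg7, the enzyme that activates both ATG12 and the ATG8 proteins, read 6.58, 6.87 and 6.67 in hydrogen mice and 6.48, 6.49 and 6.47 in control mice (0.23, SE 0.08, adjusted p = 0.0396). The hydrogen mice spread more widely than the control mice. This call ended without hydrogen replicate 2 (0.15, adjusted p = 0.117) or 3 (0.25, adjusted p = 0.0611) and without control replicate 1, 2 or 3 (0.23, 0.23 and 0.22, adjusted p = 0.0858, 0.0842 and 0.0827), and after median centring (0.14, adjusted p = 0.174). A further Atg7 probe set (1428610_PM_at) was higher by 0.34 (adjusted p = 0.0111) and passed in every setting that kept it, and the other pair, with 0.11 and -0.02, did not pass.

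The calls of Atg3 and Atg16l1 were near the threshold. Atg3, the enzyme that hands ATG8 proteins to their lipid, had -0.17 (SE 0.05, adjusted p = 0.0353), and Atg16l1 had -0.18 (SE 0.06, adjusted p = 0.0434). The Atg3 call ended without hydrogen replicate 1, 2 or 3 (adjusted p = 0.0803, 0.0795 and 0.0844) or control replicate 1 or 2 (0.102 and 0.0619). That of Atg16l1 ended without hydrogen replicate 1, 2 or 3 (adjusted p = 0.13, 0.0659 and 0.0824) or control replicate 2 or 3 (0.123 and 0.106). Neither passed after the renormalisations, with 0.01 and 0.0045 for Atg3 and 0.02 and -0.0057 for Atg16l1. Atg3 had -0.07 with the mean of its probe sets (adjusted p = 0.243). Atg12 had -0.01 in its brightest probe set (adjusted p = 0.9), and none of its 3 probe sets passed. Atg4b, a protease that trims ATG8 proteins, had -0.16 (adjusted p = 0.0611) and 0.10 (adjusted p = 0.436) in its probe sets.

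None of the 4 measured ATG8 genes passed by its brightest probe set. Gabarap read 9.68, 9.64 and 9.65 in hydrogen mice and 9.58, 9.63 and 9.66 in control mice (0.03, SE 0.05, adjusted p = 0.626). Gabarapl1 had -0.01 (SE 0.06) and Gabarapl2 had -0.11 (SE 0.08), and the groups overlapped for all 3 GABARAP genes. Map1lc3a, one of the LC3 genes, was measured by probe sets that disagreed: the brightest read 10.41, 10.40 and 10.36 in hydrogen mice and 10.19, 10.29 and 10.27 in control mice (0.14, SE 0.05, adjusted p = 0.0635), and the other read 7.59 in all 3 hydrogen mice and 7.76, 7.77 and 7.79 in control mice (-0.18, SE 0.05, adjusted p = 0.0167). The lower one had 0.04 after renewed quantile normalisation and 0.02 with cyclic loess, and its call ended without hydrogen replicate 2 (adjusted p = 0.0518). After both of those normalisations Gabarap (0.16 and 0.17), Atg12 (0.22 and 0.19) and the brightest probe set of Map1lc3a (0.20 and 0.24) passed as higher, while a dimmer Atg12 probe set (1451746_PM_a_at) passed as lower (-0.27 and -0.30), so Atg12 had opposite calls there.

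Genes of the lysosomal membrane were lower in 3 of 4 cases by the brightest probe set, against 25.9% of all genes and 37.9% of those above the median probe set. None of the 3 calls remained after either renormalisation, where Lamp1 passed as higher (0.18 and 0.20). Among the 3 was Mcoln1, which also had a further probe set called higher. Lamp2, one of the main glycoproteins that line the membrane, was lower in all 3 probe sets. The largest difference was in 1416343_PM_a_at, with 8.38, 8.42 and 8.27 in hydrogen mice and 9.0, 8.84 and 8.93 in control mice (-0.57, SE 0.07, adjusted p = 0.000571), which passed in all 13 other settings that kept it. The brighter pair had -0.17 (adjusted p = 0.0338) and -0.19 (adjusted p = 0.0204), or -0.08 and -0.12 after renewed quantile normalisation and -0.06 and -0.08 after cyclic loess, where neither passed. The call at -0.17 also ended without hydrogen replicate 1 or 2 (adjusted p = 0.07065 and 0.122) or control replicate 1, 2 or 3 (0.0792, 0.0647 and 0.0674). The call at -0.19 ended without hydrogen replicate 1 or 3 (adjusted p = 0.0566 and 0.0615) or control replicate 3 (0.0549). Lamp1, the related glycoprotein gene, read 11.15, 11.25 and 11.21 in hydrogen mice and 11.03, 11.05 and 11.10 in control mice. The values did not overlap, and the difference did not pass (0.14, SE 0.06, adjusted p = 0.0604).

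Npc1 encodes the membrane protein that exports cholesterol from the lysosome. It read 6.81, 6.72 and 6.35 in hydrogen mice and 7.01, 6.84 and 7.13 in control mice (-0.37, SE 0.12, adjusted p = 0.038). Hydrogen replicate 3 lay lowest, and without it the difference was -0.23 (adjusted p = 0.0823). The call also ended without hydrogen replicate 2 (-0.41, adjusted p = 0.0558), control replicate 1 (-0.36, adjusted p = 0.0917) or control replicate 3 (-0.30, adjusted p = 0.11). After the renormalisations it was -0.17 and -0.19 (adjusted p = 0.342 and 0.278), and it missed the threshold with array weights (adjusted p = 0.056) and with a replicate block (adjusted p = 0.0599 by limma). Mcoln1, the gene of a calcium channel of the lysosome, was the second gene with opposite calls. Its brightest probe set (1416672_PM_s_at) read 6.45, 6.70 and 6.75 in hydrogen mice and 6.84, 7.04 and 7.0 in control mice (-0.33, SE 0.09, adjusted p = 0.0186). The probe set 1431305_PM_at was lower too, with 3.90, 4.05 and 3.89 in hydrogen mice and 4.37, 4.15 and 4.07 in control mice (-0.25, SE 0.09, adjusted p = 0.0426). In contrast 1416671_PM_a_at was higher, with 6.64, 6.56 and 6.67 in hydrogen mice and 6.35, 6.50 and 6.47 in control mice (0.18, SE 0.06, adjusted p = 0.0406). Both 1416672_PM_s_at and 1416671_PM_a_at are of a type that can match more than 1 transcript, so no direction is given for Mcoln1. The groups did not overlap in any of the 3 probe sets. None of these calls held throughout: that of the brightest probe set ended when control replicate 2 or 3 was left out (adjusted p = 0.0657 and 0.0503), that of 1431305_PM_at without hydrogen replicate 1 or 3 or control replicate 1 or 2 (0.115, 0.1105, 0.116 and 0.0713), and that of 1416671_PM_a_at without hydrogen replicate 1, 2 or 3 or control replicate 1 or 3 (0.102, 0.0514, 0.109, 0.12 and 0.0588). The brightest probe set had -0.13 and -0.15 after the renormalisations (adjusted p = 0.326 and 0.241) and -0.13 with the mean of the 3 probe sets (adjusted p = 0.0567). For 1416671_PM_a_at median centring gave 0.09 (adjusted p = 0.261 by limma), while the renormalisations gave 0.36 and 0.34 with the call kept.

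Of the 7 cathepsins, Ctsh was lower, Ctsd and Ctsz were higher, and Ctsa, Ctsb, Ctsl and Ctss did not pass by their brightest probe set. Cathepsin H trims surfactant proteins in alveolar type 2 cells. Ctsh read 9.81, 9.71 and 9.89 in hydrogen mice and 10.17, 10.32 and 10.43 in control mice, without overlap (-0.50, SE 0.08, adjusted p = 0.00175), or 1.42-fold lower in the hydrogen group. This call held in all 16 other settings, with -0.59 to -0.39. In the same lungs 2 of 6 measured alveolar type 2 markers were higher, none was lower and 4 did not pass. A rise was called in 16.4% and a fall in 37.9% of all genes with above-median brightness. The mean log2 level of the type 2 markers was 10.51 to 10.56 in hydrogen mice and 10.40 to 10.51 in control mice. These ranges met at 10.51. Of the macrophage markers described below, 4 of 9 in each list were lower, or 44.4%, which is near that share of falls. In the list of other macrophages and monocytes 2 were higher. Whether cell content had a part in the Ctsh fall was not tested. In whole lung, fewer cells of a type and less RNA per cell cannot be told apart.

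Cathepsin D is the main aspartic protease of the lysosome. Ctsd read 9.56, 9.59 and 9.65 in hydrogen mice and 9.25, 9.32 and 9.53 in control mice (0.23, SE 0.08, adjusted p = 0.0377). Control replicate 3 lay closest to the hydrogen mice. The call ended without hydrogen replicate 1, 2 or 3 (adjusted p = 0.0637, 0.0842 and 0.0996) or control replicate 1 or 2 (0.117 and 0.108), and after median centring (0.14, adjusted p = 0.163). Ctsz, a carboxypeptidase of immune cells, read 9.83, 9.83 and 9.81 in hydrogen mice and 9.52, 9.53 and 9.70 in control mice (0.24, SE 0.06, adjusted p = 0.0154). Leaving out control replicate 1 or 2 ended that call (adjusted p = 0.0504 and 0.0532), as did the mean of the 3 Ctsz probe sets (0.04, adjusted p = 0.522), since the others had 0.02 and -0.14. Median centring ended it too (0.15, adjusted p = 0.0815). Ctss, the cathepsin of antigen-presenting cells, read 10.43, 10.31 and 10.43 in hydrogen mice and 10.16, 10.26 and 10.28 in control mice, which did not overlap and did not pass (0.16, adjusted p = 0.0664). It passed as higher after the renormalisations (0.22 and 0.26).

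The remaining cathepsins showed their calls in dimmer probe sets. Ctsb, an abundant cysteine protease, had -0.10 in its brightest probe set (adjusted p = 0.183), and its 4 probe sets all had negative differences. The one with the largest (1417492_PM_at) read 5.79, 5.69 and 5.77 in hydrogen mice and 6.10, 6.21 and 6.21 in control mice (-0.42, SE 0.06, adjusted p = 0.00107) and passed in every setting that kept it. The mean of the 4 probe sets was lower too (-0.24, adjusted p = 0.00506). Ctsl, a related cysteine protease, had -0.01 in its brightest probe set (adjusted p = 0.931). Its other probe set, below the median of the array at 3.92, 3.91 and 3.80 in hydrogen mice and 3.64, 3.57 and 3.56 in control mice, was higher (0.29, adjusted p = 0.00508). Ctsa, a protease that also protects lysosomal glycosidases, had -0.12 in its brightest probe set (adjusted p = 0.131) and 0.30 in a dim one (adjusted p = 0.0142), which did not pass after median centring (0.21) or the renormalisations (0.20 and 0.16).

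Among the other luminal proteins only Hexa, a subunit of the enzyme that degrades gangliosides, was called by its brightest probe set. It read 9.38, 9.47 and 9.51 in hydrogen mice and 9.63, 9.61 and 9.66 in control mice (-0.18, SE 0.06, adjusted p = 0.0303). The values did not overlap, and the difference was -0.04 without a call after either renormalisation. The call ended without hydrogen replicate 1 or 2 (adjusted p = 0.103 and 0.0685) or control replicate 1, 2 or 3 (0.0641, 0.0563 and 0.0727). Npc2, which passes cholesterol to NPC1, read 11.65, 11.70 and 11.72 in hydrogen mice and 11.62, 11.74 and 11.68 in control mice (0.01, SE 0.06, adjusted p = 0.898). Lipa, the acid lipase gene, had -0.10 (SE 0.08, adjusted p = 0.361). Gla, the gene of alpha-galactosidase, had 0.11 (SE 0.06, adjusted p = 0.161). Each of these genes had a dimmer probe set that was lower, with -0.28 for Npc2 (adjusted p = 0.0102), -0.39 for Lipa (adjusted p = 0.00934) and -0.39 for Gla (adjusted p = 0.00289). The Gla probe set, at 3.77 to 3.98 in hydrogen mice and 4.20 to 4.34 in control mice, lay below the median of the array and passed in every setting that kept it. The other pair did not pass after the renormalisations (-0.05 and -0.08 for Npc2, -0.21 and -0.23 for Lipa).

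The proton pump genes held the largest fall among the brightest probe sets. Atp6v1a encodes the subunit of the V-ATPase that splits ATP. It read 8.04, 8.09 and 8.19 in hydrogen mice and 8.60, 8.61 and 8.73 in control mice (-0.54, SE 0.06, adjusted p = 0.000612), or 1.45-fold lower in the hydrogen group. The groups were far apart compared with their spread, and the call held in all 16 other settings, with -0.63 to -0.33. A further Atp6v1a probe set was lower as well (-0.33, adjusted p = 0.0169), a call that ended without hydrogen replicate 2 or control replicate 1 (adjusted p = 0.0541 and 0.0564) and after the renormalisations (-0.11 and -0.13). Atp6v1h, a regulatory subunit of the same sector, read 7.70, 7.71 and 7.74 in hydrogen mice and 7.92, 7.92 and 8.0 in control mice (-0.23, SE 0.05, adjusted p = 0.00868), with -0.003 after renewed quantile normalisation and -0.03 with cyclic loess, where it did not pass. Atp6v0d1, of the membrane sector, had 0.08 (SE 0.05, adjusted p = 0.253), and 0.25 with a call as higher after either normalisation.

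**Figure D3:**
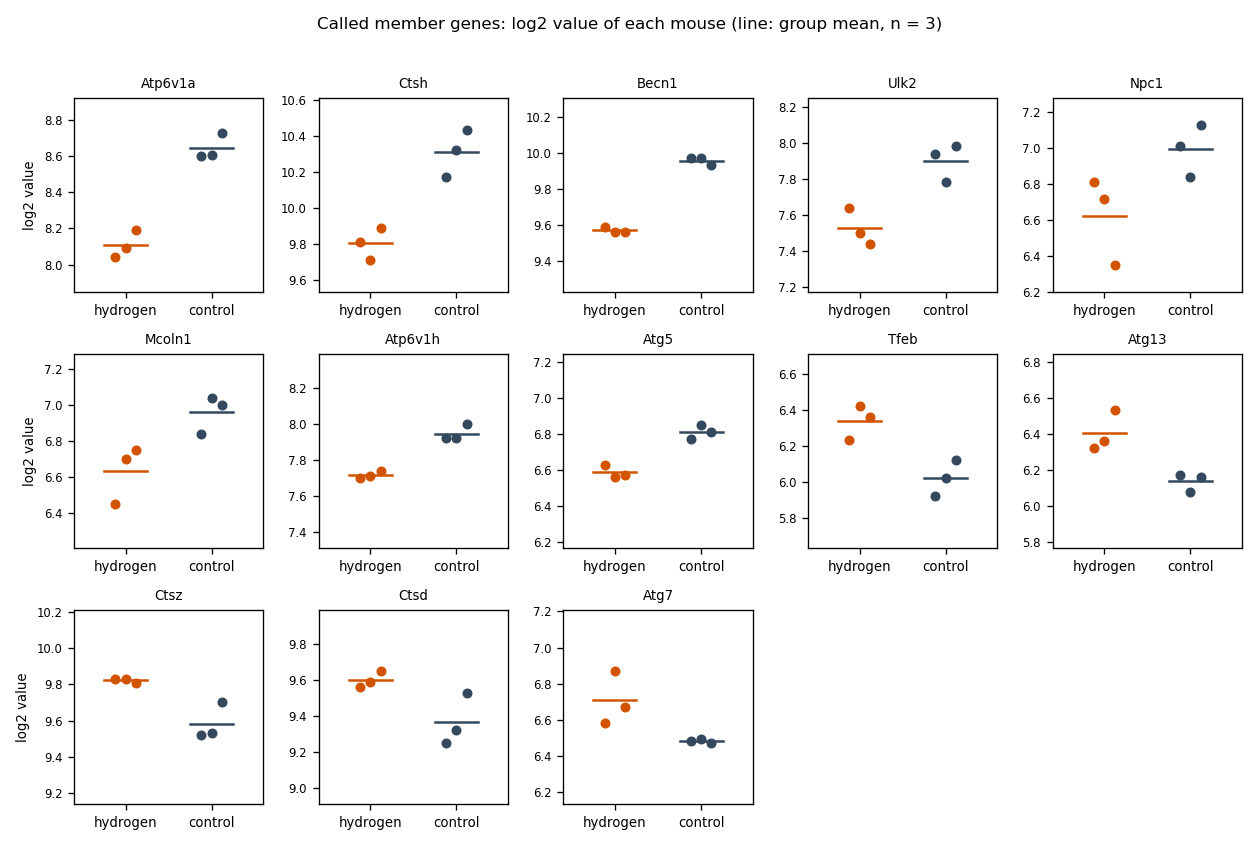
Log2 value of each mouse (points) and group mean (lines, n = 3) for the 13 genes with the largest called differences by the brightest probe set, hydrogen left of control, all panels with the same height of scale. The first 8 panels are lower in hydrogen (Atp6v1a to Atg5) and the last 5 higher (Tfeb to Atg7), and no panel has overlapping groups.

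Probe sets of the same gene often differed. Of the 22 member genes with more than 1 probe set, 7 had probe sets that all passed in the same direction or all failed to pass, 13 had called and uncalled ones, and 2 (Wipi1 and Mcoln1) had calls in opposite directions. Calls in Ulk1, Wipi1, Map1lc3a, Ctsa, Ctsb, Ctsl, Gla, Npc2 and Lipa came only from probe sets other than the brightest. Of the 39 called probe sets, 14 passed in every setting that kept them. They belonged to Tfeb, Becn1, Ctsh and Atp6v1a by the brightest probe set, and to Ulk1, Ulk2, Wipi1, Atg5, Atg7, Lamp2, Ctsb, Ctsl and Gla by further ones. The probe sets of Ctsl and Gla and 1424917_PM_a_at of Wipi1 lay below the median of the array. The setting without dim probe sets therefore did not include them. Like counts over all genes and all called probe sets are not given here, so nothing particular to the member genes is read from these.

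Differences on these arrays followed brightness, and the member genes lay on both sides of that trend. With all genes split by mean log2 value into 10 bins, bins 7, 8 and 9 had median differences of -0.16, -0.22 and -0.21, and the brightest bin, which held 17 of the 36 member genes, had -0.10. The 17 members in that bin had a median of -0.01.

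**Figure D4:**
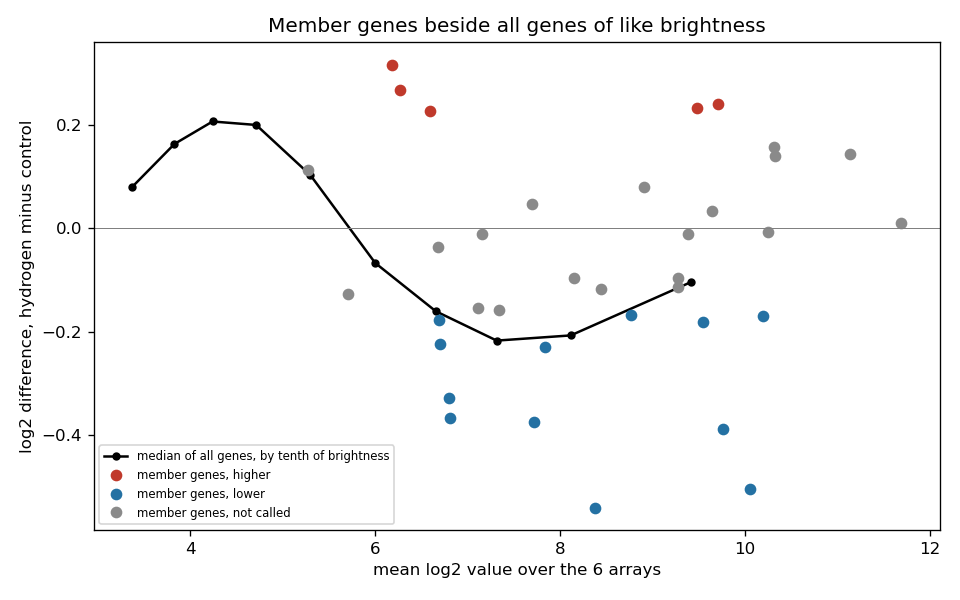
Log2 difference of the 36 member genes (brightest probe set) against their mean log2 value over the 6 arrays, with the median difference of all genes in each of 10 bins of brightness as a black line. The line is highest at 0.21 in bin 3 and lowest at -0.22 in bin 8. Members called higher (red) lie at 0.23 to 0.32 and those called lower (blue) at -0.54 to -0.17.

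A wider list of 97 further genes of autophagy and the lysosome, of which 79 were measured, was counted the same way. Of these, 8 were higher, 30 lower and 41 did not pass, or 10.1% higher and 38.0% lower. All but 5 were above the median probe set, where 16.4% of all genes were higher and 37.9% lower, so the share of falls was near that of such genes. The median difference was -0.13, against -0.12 for those genes. After renewed quantile normalisation 16 were higher and 15 lower, and 14 and 16 with cyclic loess. Of all called genes, 61.2% and 56.0% were higher in these settings, against 49.5% with the deposited values. The count of 8 was 4 without hydrogen replicate 1, 3 without hydrogen replicate 2, 3 without control replicate 1 and 5 without control replicate 2. The 5 largest falls without overlap were in Ctsk (-0.78), a collagen-degrading cathepsin, Gnptab (-0.73), the enzyme that tags hydrolases for the lysosome, Galc (-0.70), the galactosylceramidase gene, Mfsd8 (-0.69), a lysosomal membrane transporter gene, and Atg4c (-0.56), a relative of Atg4b. Ctsk read 6.05, 5.97 and 6.30 in hydrogen mice and 6.88, 6.75 and 7.02 in control mice (SE 0.10, adjusted p = 0.000781). The 5 largest rises without overlap were in Ctsf (0.46), a cysteine cathepsin, Laptm4b (0.36), a lysosomal membrane protein gene, Rptor (0.30), Arsb (0.24), a sulfatase gene, and Atp6v0a1 (0.21), a proton pump subunit gene. Of these named genes, Mfsd8, Atg4c and Arsb lay below the median probe set, where 41.0% of all genes were higher and 5.3% lower. When all probe sets of a gene were averaged, Galc (-0.12), Ctsf (0.11) and Laptm4b (0.002) did not pass, and Gnptab had -0.22. The Arsb call ended without hydrogen replicate 1 or 2 (adjusted p = 0.0837 and 0.118) or control replicate 1, 2 or 3 (0.105, 0.0607 and 0.0604), and that of Atp6v0a1 without hydrogen replicate 2 or 3 or control replicate 1 (0.0672, 0.0614 and 0.0675). Median centring ended both calls (0.15 for Arsb and 0.12 for Atp6v0a1), and the renormalisations ended that of Arsb (0.11 in each).

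Genes around Tfeb were looked at as a group chosen after their values were seen. They were 9 genes of the wider list, namely those of the kinase complex and lysosomal GTPases that hold TFEB out of the nucleus in fed cells and of its relatives TFE3 and MITF. Of the 9, 1 was higher, 5 were lower and 3 did not pass, and all were above the median probe set, where 16.4% of all genes were higher and 37.9% lower. Since the group was picked with its values known, nothing is read from these counts. Rptor, a subunit of the kinase complex, read 6.96, 7.05 and 7.03 in hydrogen mice and 6.77, 6.62 and 6.76 in control mice (adjusted p = 0.00574). Mtor, the kinase itself, was lower (-0.35, SE 0.08, adjusted p = 0.0103), though not with the mean of its probe sets (-0.01) or after the renormalisations (-0.12 and -0.15). Rragd (-0.49), Rragc (-0.20) and Lamtor2 (-0.39), genes of the GTPases and their anchor, were lower, though Lamtor2 did not pass with the mean of its probe sets (-0.08) or after renewed quantile normalisation (-0.18). Mitf was lower (-0.49, SE 0.08, adjusted p = 0.00187), with 7.53, 7.32 and 7.54 in hydrogen mice and 7.88, 8.06 and 7.92 in control mice. Tfe3 (-0.08), Flcn (-0.08) and Lamtor1 (0.03) did not pass. The calls of Rptor, Rragd and Mitf held in all 16 other settings, while that of Rragc ended without hydrogen replicate 1 or 2 (adjusted p = 0.0501 and 0.0987) or control replicate 2 or 3 (0.0833 and 0.0517), with a replicate block (0.0556), and after the renormalisations, where the difference was -0.02.

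Markers of cell types rich in lysosomes, of other lung cells and of cardiac muscle were counted too. As a yardstick, a fall was called in 37.9% and a rise in 16.4% of all genes with above-median brightness. Of 9 measured alveolar macrophage markers (10 listed), 4 were lower and none higher, and their mean log2 level was 6.83 to 7.07 in hydrogen mice and 7.07 to 7.32 in control mice. Marco, one of that list, was below the median of the array. Of 9 measured markers of other macrophages and monocytes (10 listed), 4 were lower and 2 higher, with 5.93 to 6.06 in hydrogen mice and 6.07 to 6.15 in control mice. In both macrophage lists 44.4% were lower, which is near the yardstick of 37.9%. All 7 measured cardiac muscle markers (8 listed) were lower, with 5.70 to 7.90 in hydrogen mice and 9.07 to 9.44 in control mice. Of 4 alveolar type 1 markers 3 were lower (10.75 to 10.83 in hydrogen mice, 10.88 to 10.96 in control mice), of 4 endothelial markers 1 was lower (8.75 to 8.97 in hydrogen mice, 8.885 to 9.03 in control mice), and none of 4 neutrophil markers passed (7.25 to 7.79 in hydrogen mice, 6.85 to 7.29 in control mice). The endothelial and the neutrophil levels overlapped between the groups. The part of the listed cell types in the differences of the autophagy and lysosome genes was not tested.

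**Figure D5:**
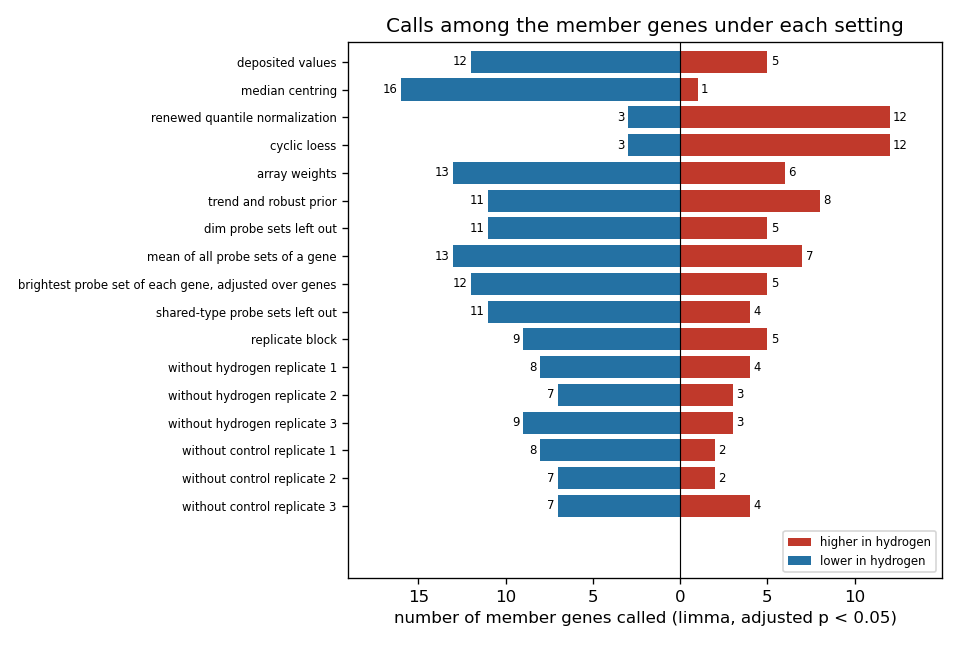
Number of the member genes called higher (red, to the right) or lower (blue, to the left) in the hydrogen group under the deposited values and each other setting. The counts are 5 higher and 12 lower with the deposited values, and 12 higher and 3 lower after renewed quantile normalisation or cyclic loess.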

How the data were processed

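The deposited table holds log2 values per probe set for MG-430 PM Array Strips. Per the submitters' processing notes the authors used RMA and Affymetrix Expression Console. Neither names a version, and a joint normalisation of the 6 arrays is not stated. Symbols came from the platform annotation, and 28689 of 28898 single-gene probe sets matched RefSeq (GRCm38.p6) by Entrez identifier, with 0 symbols changed. Control probe sets (104 of 45141) were left out of the main test. The hydrogen and control mice were tested with lmFit and eBayes of limma 3.58.1 (R 4.3.3) over 45037 probe sets, without a filter, at an adjusted p of 0.05 (Benjamini-Hochberg). For each gene the brightest probe set, by mean over the 6 arrays, stood for it. On simulated arrays, 100 of 45037 probe sets were changed. Of these, 60 changes of 0.5 and 89 changes of 1 were recovered, with 7 false calls at each size. In the data 47.1% of probe sets passed, so these rates do not give the sensitivity of the fit. Other settings were median centring, renewed quantile normalisation, cyclic loess, array weights, a prior with trend and robust fitting, no dim probe sets, gene means, a fit over genes, no shared-type probe sets, a replicate block and each array left out. Members, lists and settings were chosen with earlier results of these data known. Every member was named. All array values were given for up to 8 called rises and 8 falls, and 5 further genes were named per direction. Plots used Python 3.11.15 and matplotlib 3.10.9.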

Additional observations from a re-analysis of the deposited data

How the results depend on the processing

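With the deposited values 11 member probe sets were higher and 28 lower, 5 and 12 member genes, 8 and 30 further genes, and 10956 and 10257 of all probe sets. Median centring gave 5 higher and 37 lower member probe sets, 1 and 16 member genes, 3 higher and 47 lower further genes and 6377 higher probe sets of all, with a member median of -0.19. Renewed quantile normalisation gave 19 higher and 12 lower member probe sets, 12 and 3 member genes and 16 and 15 further genes, with a member median of 0.0751. Cyclic loess gave 18 and 13, 12 and 3, and 14 and 16, with a median of 0.0599. Among called genes of all kinds, 49.5% were higher with the deposited values, 30.4% after median centring, 61.2% with renewed quantile normalisation and 56.0% with cyclic loess. Signs turned with a call on either side for Gabarapl1 (0.191), Atg16l1 (0.0178), Atg3 (0.0106), Map1lc3a (0.0431) and Atg12 (0.219) after renewed quantile normalisation, for Atg3 (0.0045), Map1lc3a (0.0176) and Atg12 (0.186) after cyclic loess, and for Ctsl (0.14) and Gla (-0.14) with the mean of all probe sets. The cause was not tested. A prior with trend and robust fitting gave 8 higher member genes, leaving out shared-type probe sets 7 higher member probe sets among fewer tested, and leaving out dim probe sets 3668 higher probe sets among fewer tested. Replicate numbers did not pair the mice (correlations of deviations 0.08, 0.03 and -0.11 for equal numbers), and not every array correlated best with its own number. With a replicate block 10 member probe sets were higher and 23 lower, 5 and 9 member genes, and 5 further genes higher. Leaving out each array gave 7 to 9 higher member probe sets, 2 to 4 higher and 7 to 9 lower member genes, and 3 to 7 higher further genes. Probes of low signal limit the values below the array median.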
